A study of Xenopus laevis with 12 samples.

Results

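A set of 116 gene IDs, of 44478 in the deposited count table, was low in foregut endoderm at 25 nM retinoic acid (RA) and above vehicle at 200 nM RA. The IDs were chosen from their mean CPM (counts scaled to 1 fixed library total). A member had a mean of at least 3 CPM at 200 nM, a log2 ratio to DMSO of -1 or lower at 25 nM, and a log2 ratio to DMSO of 0.5 or higher at 200 nM, each ratio with 0.5 CPM added to both means. The DMSO, 25 nM and 200 nM values of these libraries therefore chose the members, and those values are given as a description. The 500 nM libraries did not enter the choice.

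The tissue was endoderm of the prospective foregut, cut from wild-type Xenopus laevis (African clawed frog, stock NXR_0031) at Nieuwkoop-Faber (NF) stage 15 and cultured at 15 °C for 16 hours, to NF stage 25. The 4 groups, of 3 libraries each, received 0.1% DMSO as vehicle, 25 nM RA, 200 nM RA or 500 nM RA. Each library was a pool of 8 explants. The labels do not say whether pools came from separate clutches, so a p-value covers no more than the spread of these pools. In pooled tissue, fewer cells of a type and less RNA per cell cannot be told apart.

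Retinoic acid is made from vitamin A and enters the nucleus, where it binds retinoic acid receptors that pair with retinoid X receptors on DNA. With the ligand bound, the receptors switch from repressing to activating nearby genes, and enzymes of the CYP26 family break the ligand down. In the vertebrate foregut, RA signalling helps to set where along the body axis organs such as lung and pancreas form.

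The tables do not pair the IDs with gene names, and a search of RefSeq identifiers of the assembly Xenopus_laevis_v10.1 found 0 of them. Roles of the members and markers of the tissue could therefore not be looked up, and the members are described by their levels. A few are named by ID.

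Before the results, 3 facts of the libraries bear on the members. Total counts were 17782601 to 39147729 per library, so that 3 counts corresponded to 0.0766 to 0.169 CPM. The libraries at 500 nM did not share a level of the members, with replicate 2 far under replicates 1 and 3, and at 200 nM replicate 3 lay under the other two. Replicate 1 at 200 nM had the lowest TMM factor (0.891, the edgeR correction for library composition), so its CPM values read lower than its corrected values.

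The members were few, and their median level at 200 nM was under that of all IDs with at least 3 CPM at that dose. Of the 302 IDs with at least 3 CPM at 200 nM and a log2 ratio of -1 or lower at 25 nM, 38.4% were members, and of the 883 with a log2 ratio of 0.5 or higher at 200 nM, 13.1% were members. Per transcript length, the group mean of a member at 200 nM ranged from 0.503 to 45.4 TPM with a median of 3.81 TPM, against a median of 9.48 TPM over the 16059 IDs with at least 3 CPM at that dose. Together the members held 0.0593% to 0.0618% of the counts in the DMSO libraries. That share was 0.00816% to 0.00879% at 25 nM and 0.0996% to 0.144% at 200 nM. It was 0.0400%, 0.0123% and 0.0296% in replicates 1, 2 and 3 at 500 nM.

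Some IDs missed the thresholds by little. The member nearest the 25 nM threshold had a log2 ratio of -1.02 at 25 nM, and the nearest ID outside had -0.998 (9.71 and 5.73 CPM in DMSO). At the 200 nM threshold the nearest values were 0.501 inside and 0.498 outside, from 4.28 to 6.27 CPM and from 4.72 to 6.86 CPM. At the threshold of 3 CPM they were 3.04 and 2.995 CPM. Within 0.1 of the 200 nM threshold lay 17 members and 13 IDs just outside.

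Set to the mean of DMSO for each ID, the median member stood at 8.21%, 7.33% and 6.58% in replicates 1, 2 and 3 at 25 nM. At 200 nM it stood at 211%, 236% and 163%. At 500 nM it stood at 64.1%, 9.17% and 45.1%. The 25 nM libraries were close to each other, whereas the 500 nM libraries ranged from about the 25 nM level to levels between 25 nM and DMSO.

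**Figure D1:**
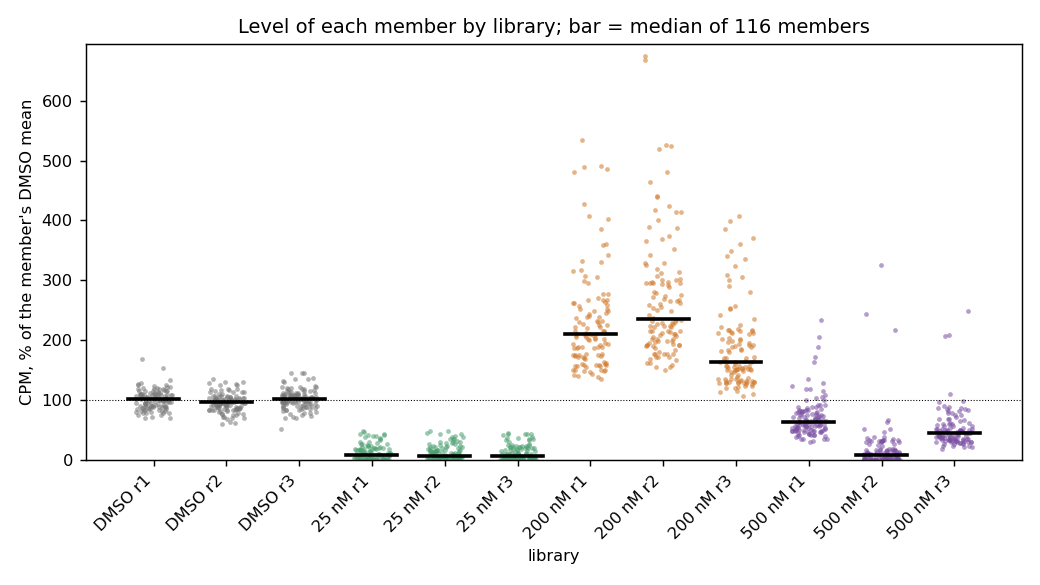
CPM of each of the 116 members as a percentage of its DMSO mean (vertical axis) in the 12 libraries (horizontal axis, r1 to r3 are replicates). Each point is a member and the black bar the median, which is 8.21%, 7.33% and 6.58% at 25 nM, 211%, 236% and 163% at 200 nM, and 64.1%, 9.17% and 45.1% at 500 nM; the dotted line marks 100%.

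The same pattern held for most members one by one. Replicate 2 was the lowest of the 3 libraries at 500 nM for 111 of 116 members (95.7%), against 23.2% of the 16059 IDs. The order of replicate 1 over 3 over 2 was seen for 100 members (86.2%), against 12.9% of those IDs. These counts were the same, 111 and 100, with TMM-scaled CPM. At 200 nM, replicate 3 was the lowest for 108 members (93.1%), against 8.31% of those IDs, and for 114 with TMM-scaled CPM. The 8.31% is by CPM, in which replicate 1 read low. The median log2 difference of replicate 1 over replicate 3, with 0.5 CPM added, was -0.20 over those IDs and 0.32 among members. In a like set of 68 IDs, described further on, it was 0.25, and replicate 3 was the lowest at 200 nM for 53 (77.9%). Shares of all IDs with TMM scaling were not taken, so the TMM counts stand without a background. Replicate 2 was above replicate 1 at 200 nM for 101 members by CPM but for 58 with TMM scaling, so the order of these 2 libraries depended on the scaling. By CPM this order was shared by most IDs. The median log2 difference of replicate 2 over replicate 1 was 0.20 among members and 0.20 over the 16059 IDs, with a lower quartile of 0.12 over those IDs.

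**Figure D2:**
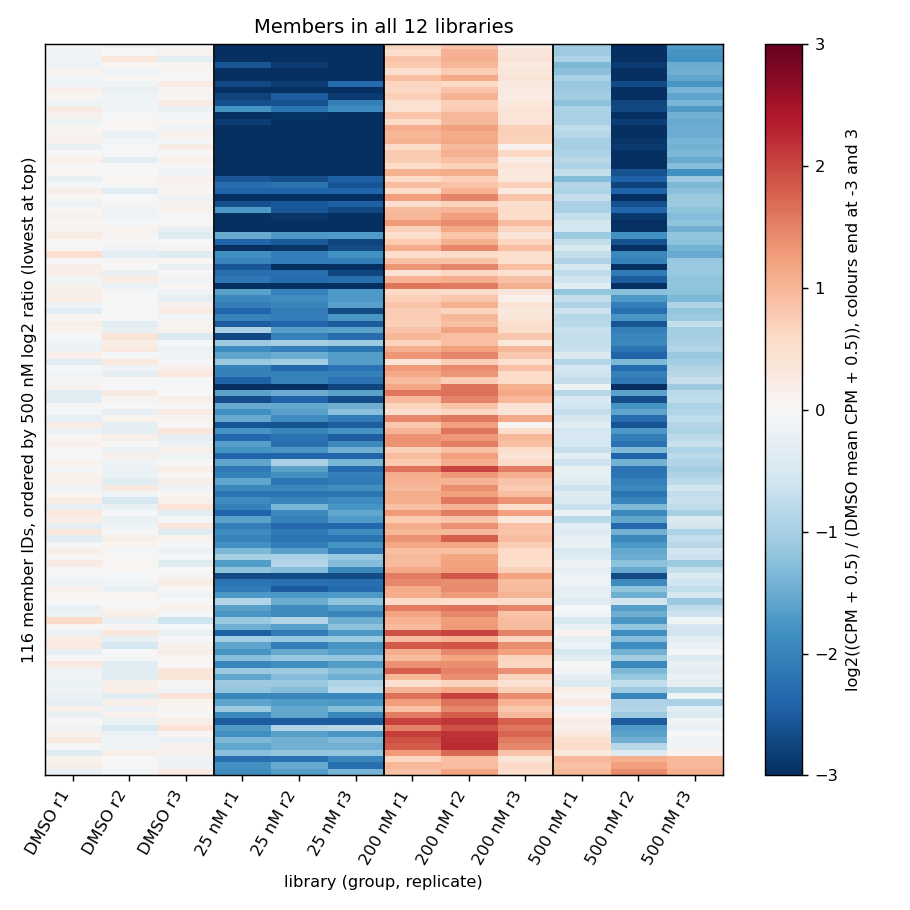
Log2 ratio of each member's CPM to its DMSO mean, with 0.5 CPM added to both (colour, ending at -3 and 3), for 116 members (rows, ordered by the 500 nM group ratio) in 12 libraries (columns). By CPM, replicate 2 at 500 nM lay within or under the range of the 25 nM libraries for 74 members (63.8%), against 68.7% of the 16059 IDs. The share of members was thus not above that of those IDs. The 3 members in the bottom rows are high in every 500 nM library.

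Differences between the 500 nM libraries were large for the members and for some other IDs, and small for the median ID. The median log2 difference of replicate 1 over replicate 2, with 0.5 CPM added, was 1.57 among members and -0.05 over the 16059 IDs. For replicate 3 over replicate 2 it was 1.28 among members and -0.05 over those IDs. Of the 16059 IDs, 175 were at least 2-fold higher in replicate 1 than in replicate 2, and 94 of these were members. They made up 81.0% of the members and 53.7% of the 175 IDs. Another 33 of the 175 belonged to a like set of 68 IDs, described further on, that were low at 25 nM but close to DMSO at 200 nM. In that set the median log2 difference was 0.93 for replicate 1 over 2 and 0.75 for replicate 3 over 2. In the other direction 2 IDs were at least 2-fold lower in replicate 1, and neither was a member. Replicates 1 and 3 differed less, with a median log2 difference of 0.37 among members. What set the 500 nM libraries apart was not tested.

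The 500 nM level of each member was then placed on the span from its 25 nM mean (0%) to its 200 nM mean (100%). Replicate 1 lay at a median of 26.0% of this span, with quartiles of 21.8% and 29.4% over the members. Replicate 3 lay at 16.2%, with quartiles of 13.1% and 20.0%. Replicate 2 lay at 0.0%, with quartiles of -1.07% and 1.86%. Between the quartiles the members thus held a narrow position within each 500 nM library, and the medians differed between the libraries. The 10th to 90th percentiles were 18.4% to 33.3% in replicate 1 and 9.20% to 26.1% in replicate 3, which overlap. In replicate 2 they were -3.03% to 6.52%. The DMSO libraries lay at 45.1%, 42.7% and 43.6%, with quartiles farther apart, the lowest at 32.9% and the highest at 55.4%. Both ends of the span entered the choice of members, so these positions are a description.

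**Figure D3:**
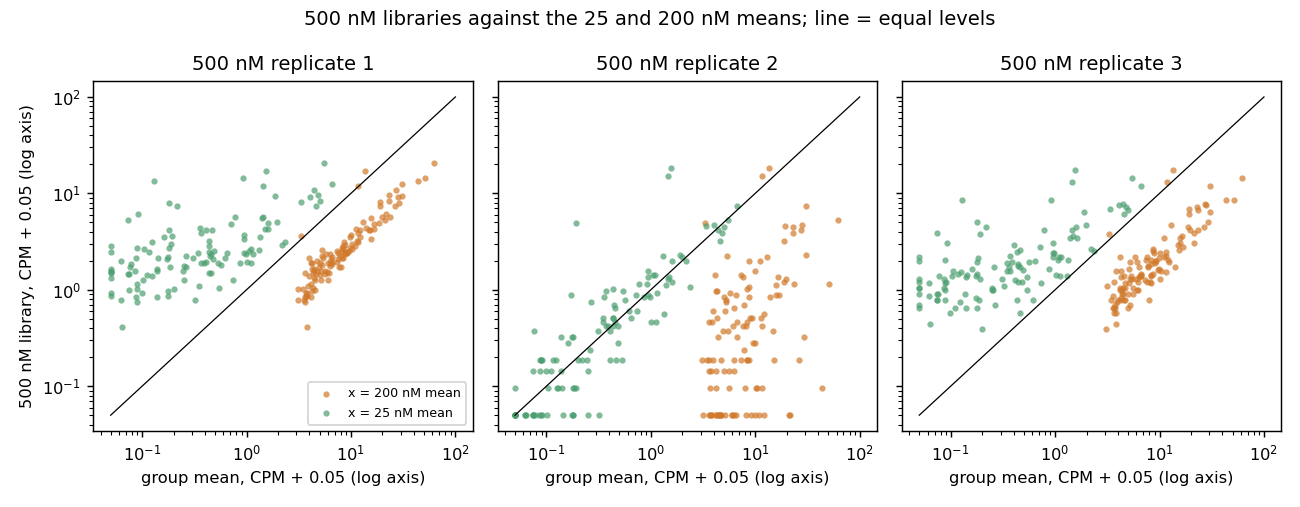
CPM of each member in 500 nM replicates 1, 2 and 3 (vertical axes) against its 200 nM mean (orange) and its 25 nM mean (green), all with 0.05 CPM added on log axes; the line marks equal levels. In replicate 2 the green points follow the line (Spearman 0.879 across members), while in replicates 1 and 3 the orange points form a band under it (0.921 and 0.841).

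The ranking of the members in each 500 nM library was set beside their ranking in the other groups. Across the 116 members, replicate 1 at 500 nM correlated with the 200 nM mean at a Spearman value of 0.921, with the DMSO mean at 0.863 and with the 25 nM mean at 0.602. Replicate 3 gave 0.841, 0.817 and 0.630 in the same order, so that DMSO was nearly as close as 200 nM. Replicate 2 gave 0.425, 0.492 and 0.879. These values are across genes, which are not independent replicates, and the ranks depend in part on transcript length and on the low counts at 25 nM.

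The members differed in how much was left at 25 nM. In 28 members the 25 nM mean was at most 2% of the DMSO mean, in 39 it was above 2% and up to 10%, in 32 above 10% and up to 25%, and in 17 above 25%. In these 4 classes, the median level in 500 nM replicate 2 was 0%, 6.55%, 18.1% and 32.3% of DMSO. In 500 nM replicate 1 it was 54.9%, 59.7%, 65.2% and 73.4% of DMSO. The residue at 25 nM went with a like residue in 500 nM replicate 2, class by class. Both residues were divided by the same DMSO mean, and the 25 nM and DMSO values chose the members, so this is a description. The classes were not taken over other IDs. The position of 500 nM replicate 1 on the span from 25 to 200 nM was 26.1%, 26.8%, 24.0% and 26.0% in the same classes. That of replicate 3 was lower from class to class, at 18.5%, 16.0%, 15.7% and 13.7%. Replicate 2 lay at 0.0%, 0.45%, 0.43% and -2.83%.

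Counts of 0 occurred in the 25 nM libraries and in 500 nM replicate 2 alone. In the 25 nM group, 9 members had 0 counts in all 3 libraries, and 8 of these also had 0 counts in 500 nM replicate 2. In that replicate, 25 members (21.6%) had 0 counts, each of which allows up to 0.139 CPM at a floor of 3 counts. Over the 16059 IDs the numbers in place of 9, 8 and 25 were 12, 11 and 41. In the like set of 68 IDs they were 3, 3 and 13, the last being 19.1% of that set. Every member had at least 11 counts in each DMSO library, 60 at 200 nM, 14 in replicate 1 and 8 in replicate 3 at 500 nM. The member with the largest fall at 25 nM by the rule had 611, 471 and 721 counts in DMSO and 0, 3 and 3 counts at 25 nM. It had 1348, 1208 and 857 counts at 200 nM and 518, 1 and 195 counts at 500 nM, so that replicate 2 was in the range of 25 nM and replicates 1 and 3 lay between 25 nM and DMSO.

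The comparison of 500 nM RA with DMSO was the test that the choice of members left most open, although it shares its 3 control libraries with the comparisons that chose them. By edgeR's quasi-likelihood test with Benjamini-Hochberg adjustment over 24454 IDs, 52 of 116 members (44.8%) were called lower and 3 (2.59%) higher at an adjusted p under 0.05. Over all IDs tested, 22.6% were called lower and 22.3% higher. The median log2 fold change was -1.07 over the members and -0.01 over all IDs. All 116 members passed the filter on low counts, which a mean of 3 CPM in the 3 libraries at 200 nM is enough to pass.

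The count of members called lower at 500 nM turned on single libraries. It was 84 of 116 without 500 nM replicate 1 (21.2% of all IDs were), 68 without replicate 2 (19.9%) and 28 without replicate 3 (19.9%). Without DMSO replicate 1, 2 or 3 it was 26, 32 or 25 (20.1%, 20.2% or 20.0% of all IDs were). In a fit of those 2 groups by themselves it was 28 (22.8% of all IDs were). In the fits with 25 to 28 members called lower, the share of members was thus little above that of all IDs. A further fit left out 500 nM replicates 1 and 3 and 200 nM replicate 3. It rests on a lone 500 nM library whose spread is borrowed from the remaining groups, so its counts are not given. The 3 members called higher were called in each of the other fits named here. By position in CPM rather than by test, all 3 libraries at 500 nM were below all 3 DMSO libraries for 88 members (75.9%), against 40.0% of the 16059 IDs. They were above for 3 members (2.59%), against 22.4% of those IDs. The median log2 ratio of those IDs at 500 nM to DMSO was -0.10 by CPM and -0.01 with TMM scaling, so CPM favours positions below DMSO.

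**Figure D4:**
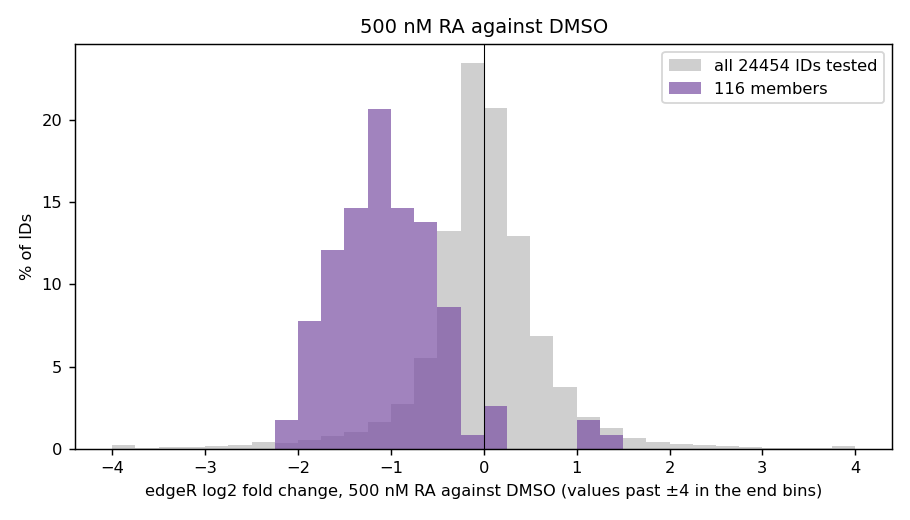
Distribution of edgeR log2 fold changes of 500 nM RA against DMSO (horizontal axis) as a percentage of IDs (vertical axis), for the 116 members (purple) and all 24454 IDs tested (grey). The members centre on -1.07 and all IDs on -0.01, with 3 members apart at about 1.2 to 1.5.

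At 500 nM the largest falls from DMSO, among members with at least 5 CPM and no overlap of values, were those of XBXL10_1g36027 and XBXL10_1g36028. XBXL10_1g36027 had 4.58, 4.61 and 6.16 CPM in DMSO and 0.358, 0.291 and 0.641 CPM at 25 nM. It had 8.33, 7.94 and 6.26 CPM at 200 nM and 2.04, 0.370 and 1.16 CPM at 500 nM. All 500 nM values were under all DMSO values, and replicate 2 alone was in the range of the 25 nM group. The mean was 5.12 ± 0.903 CPM in DMSO and 1.19 ± 0.837 CPM at 500 nM (SD, n = 3 each). The log2 fold change at 500 nM against DMSO, which edgeR fitted with TMM scaling and which is not the plain ratio of the CPM means, was -1.88 (SE 0.431), with an adjusted p of 0.00459.

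XBXL10_1g36028 had 8.30, 9.67 and 9.87 CPM in DMSO and 1.14, 0.832 and 0.717 CPM at 25 nM. It had 16.3, 19.0 and 11.5 CPM at 200 nM and 3.35, 0.833 and 2.98 CPM at 500 nM. Here too replicate 2 at 500 nM was at the level of the 25 nM group, and replicates 1 and 3 lay between 25 nM and DMSO. Its log2 fold change at 500 nM was -1.78 (SE 0.394), with an edgeR adjusted p of 0.00487. The pair carries consecutive ID numbers, and whether the 2 IDs share sequence or reads was not tested.

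The largest rises at 200 nM, by the same conditions, were those of XBXL10_1g22207 and XBXL10_1g5816, and the call at 200 nM of each was lost under some alternatives. XBXL10_1g22207 had 2.72, 2.08 and 2.53 CPM in DMSO, 0.322, 0.458 and 0.377 CPM at 25 nM, and 11.9, 12.8 and 9.42 CPM at 200 nM. At 500 nM it had 3.14, 0.463 and 2.42 CPM, so that replicates 1 and 3 were near DMSO and replicate 2 was near 25 nM. The group mean at 500 nM was 2.01 ± 1.39 CPM against 2.44 ± 0.328 CPM in DMSO (SD, n = 3 each). The log2 fold change fitted by edgeR, again not the ratio of these means, was -0.09 (SE 0.490), with an adjusted p of 0.90. The 3 libraries at 500 nM did not share a level for this ID.

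XBXL10_1g5816 had 0 counts in all 25 nM libraries, where the floor of 3 counts is 0.107 to 0.125 CPM, and 49, 35 and 66 counts in DMSO. It had 2.34, 1.97 and 2.69 CPM in DMSO, and 11.2, 12.1 and 9.30 CPM at 200 nM. At 500 nM it had 2.78, 0 and 2.11 CPM, from 109, 0 and 49 counts. As with the ID before it, replicates 1 and 3 were near DMSO and replicate 2 was not. Its log2 fold change at 500 nM against DMSO was -0.30 (SE 0.775), with an edgeR adjusted p of 0.79.

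Another 3 members went against the rest at 500 nM: XBXL10_1g40790, XBXL10_1g27017 and XBXL10_1g33576. They were singled out after their values were seen, as the members with every 500 nM library above every DMSO library. XBXL10_1g40790 had 9.07, 8.49 and 7.63 CPM in DMSO and 1.36, 1.37 and 1.77 CPM at 25 nM. It had 13.4, 16.0 and 11.0 CPM at 200 nM and 17.2, 18.2 and 17.3 CPM at 500 nM. Its 500 nM values lay close together, and replicate 2 was not low. The log2 fold change at 500 nM was 1.17 (SE 0.113), with an edgeR adjusted p of 1.03e-12.

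XBXL10_1g27017 had 7.25, 6.07 and 5.47 CPM in DMSO and 1.43, 1.87 and 0.906 CPM at 25 nM. It had 13.1, 12.4 and 9.50 CPM at 200 nM and 11.9, 15.3 and 13.1 CPM at 500 nM. Replicate 2 was the highest library at 500 nM, and the 200 and 500 nM values overlapped. Its log2 fold change at 500 nM against DMSO was 1.19 (SE 0.164), with an edgeR adjusted p of 3.52e-06.

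XBXL10_1g33576 had 1.24, 1.41 and 1.88 CPM in DMSO and 0.0358, 0.125 and 0.264 CPM at 25 nM, from 1, 3 and 7 counts. It had 3.18, 4.16 and 2.38 CPM at 200 nM and 3.53, 4.90 and 3.75 CPM at 500 nM. Again replicate 2 was the highest library at 500 nM. Its log2 fold change at 500 nM against DMSO was 1.49 (SE 0.246), with an edgeR adjusted p of 7.49e-07. In these 3 members the libraries at 25 nM were the only ones under the range of DMSO.

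**Figure D5:**
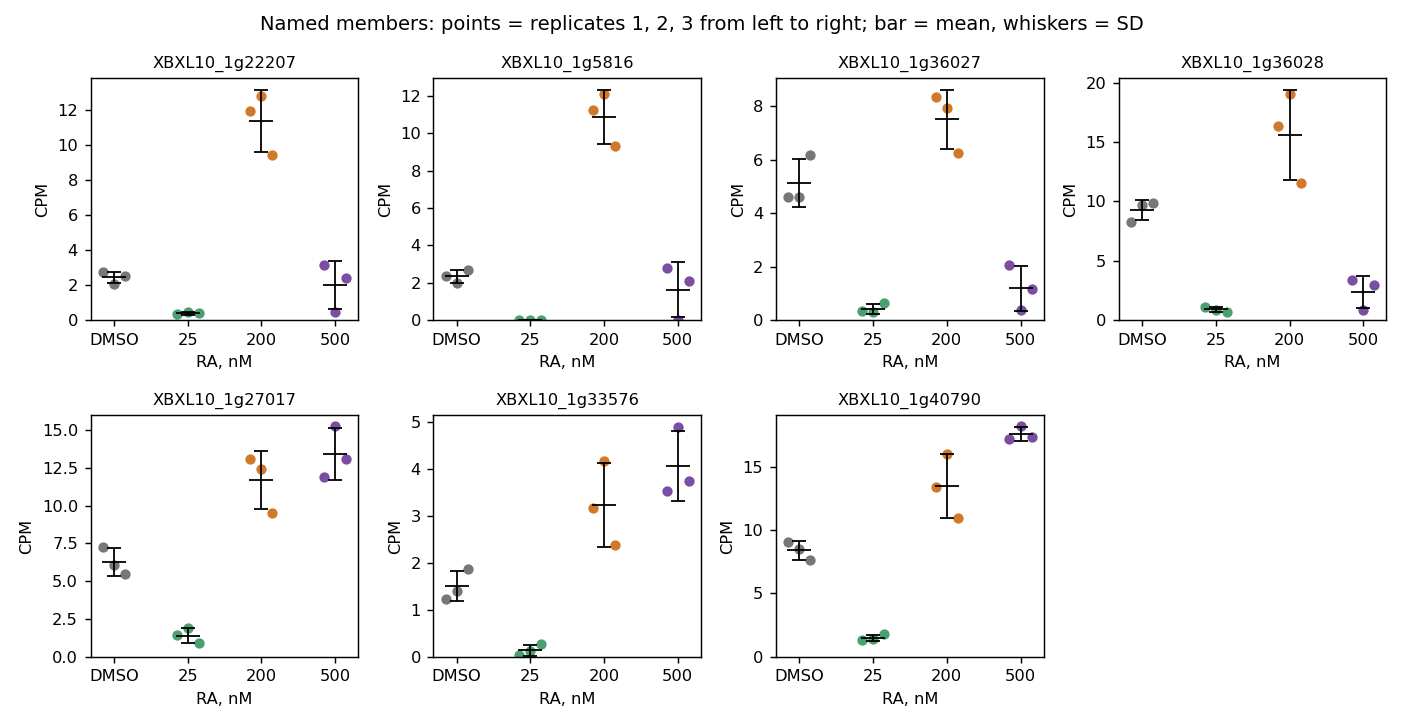
CPM (vertical axes, from 0) of 7 named members by group (horizontal axes, DMSO and RA in nM); points are replicates 1, 2 and 3 from left to right, the bar is the mean and the whiskers are the SD. In the first 4 panels 500 nM replicate 2 lies under replicates 1 and 3, and in the last 3 panels all 500 nM values lie above DMSO.

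The 500 nM libraries were also set against the other doses. By CPM, all of them lay below all 200 nM libraries for 113 of 116 members (97.4%), against 18.5% of the 16059 IDs. All of them lay above all 25 nM libraries for 41 members (35.3%), against 11.0% of those IDs. Replicate 2 at 500 nM lay within or under the 25 nM range for 74 members (63.8%), against 68.7% of those IDs. In the like set of 68 IDs, described below, it was 77.9%. The members' share was thus not above either, and it is not read as a trait of the members. By edgeR, 111 of 116 members were called lower at 500 than at 200 nM (15.1% of all IDs were) and 1 was called higher, XBXL10_1g40790 (14.0% of all IDs were). At 500 against 25 nM, 62 were called higher (8.85% of all IDs were) and 0 lower (8.13% of all IDs were). High values at 200 nM and low values at 25 nM were conditions of membership, so nothing is read from these counts on their own. The count of 62 was 113 without 500 nM replicate 2 (7.53% of all IDs were). It was between 24 and 33 without any other single library of the 25 or 500 nM groups (6.51% to 7.37% of all IDs were).

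The comparisons used by the rule are given for completeness. At 25 nM against DMSO, 114 of 116 members were called lower by edgeR (20.3% of all IDs were) and 0 higher (19.6% of all IDs were). At 200 nM against DMSO, 65 were called higher (14.5% of all IDs were) and 0 lower (12.9% of all IDs were), and at 200 against 25 nM all 116 were called higher (10.2% of all IDs were) and 0 lower (9.67% of all IDs were). The 65 became 115 without 500 nM replicate 2 (15.2% of all IDs were) and 110 in a fit of those 2 groups by themselves (14.7% of all IDs were). In the main fit the spread was estimated over the 4 groups, the 500 nM libraries included. What changed these counts was not tested. The count of 65 was 37 to 42 without any single library of the DMSO group or without 200 nM replicate 1 or 2 (12.3% to 12.7% of all IDs were).

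The nearest like set was made of 68 IDs that met the same conditions on abundance and on 25 nM but lay within 0.5 of DMSO at 200 nM on the log2 scale. Its median IDs stood at 42.6%, 16.5% and 31.3% of DMSO in 500 nM replicates 1, 2 and 3, against 64.1%, 9.17% and 45.1% for the members. On the span from 25 to 200 nM the 500 nM libraries of that set lay at 22.8%, -2.09% and 11.7%, against 26.0%, 0.0% and 16.2%. Its quartiles lay farther apart, for example 14.7% and 31.0% in replicate 1 against 21.8% and 29.4% in the members. Its span was also the shorter relative to the 200 nM mean. The 25 nM libraries stood at medians of 19.0% to 21.5% of that mean, against 3.08% to 3.67% in the members. How far this widened the quartiles was not tested. Replicate 2 was the lowest 500 nM library for 57 of the 68 (83.8%), and the order of replicate 1 over 3 over 2 was seen for 53 (77.9%). At 200 nM, replicate 3 was the lowest for 53 (77.9%). The splits of the 500 nM and 200 nM groups were thus seen there too, and no test of a difference between the sets was run.

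Properties outside the measured groups were few. Transcript length relative to the median of the 16059 IDs, taken from counts per TPM, had a median of 1.21 in the 113 members with a value and quartiles of 0.813 and 1.77, against quartiles of 0.615 and 1.64 over those IDs. None of the members had counts identical to those of another ID in all libraries. An ID number within 10 of another member's number was found for 19 of 116 members. In the like set of 68 IDs, 6 had a number within 10 of another of that set. The sources used here do not say what the numbering follows.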

How the data were processed

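Library preparation used a stranded mRNA kit, per the labels' protocols. Expected counts for each ID, already whole, and TPM values were deposited by the authors as 2 tables. The submitters' processing notes name RSEM 1.3.0 and Bowtie2; the build is not given in the sources used here. Reads that fit several genes are divided among them by RSEM, which makes the counts of near-identical copies uncertain. The 1 row naming no gene held 0 counts and was left out. Rounding changed 0 counts.

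Counts were fitted in R 4.3.3 with edgeR 4.0.16 (filterByExpr with a minimum count of 10, TMM factors of 0.891 to 1.06, robust quasi-likelihood fit with 4 groups over 12 libraries), which tested 24454 IDs. The steps were checked on simulated counts with an equal spread for all IDs and libraries. That check does not cover a group whose libraries disagree, as at 500 nM. Standard errors come from the fitted information and the quasi-likelihood dispersion. Alternatives used DESeq2 1.42.0 and limma 3.58.1. Counting floors cover counting error only. Named members were the largest 2 rises at 200 nM and 2 falls at 500 nM against DMSO with an adjusted p under 0.05, at least 5 CPM in the higher group and no overlap; 3 more were added. The gene lists in the plan were not run, since no ID had a symbol. The members and lists were chosen with earlier results of these data known.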

Additional observations from a re-analysis of the deposited data

How the results depend on the processing

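The fits without the 3 libraries named in the text and with a 2-fold minimum were chosen after seeing the data. The rule gave 116 IDs, 125 with TMM-scaled CPM (113 shared), 85 with TPM (61 shared, where the minimum of 3 is another level), 135 and 94 with offsets of 0.1 and 1, and 94 to 138 with a library left out. Members called lower at 500 nM against DMSO numbered 28 in a fit of both groups alone, 25 to 84 with 1 library left out, and 111 without the 3 libraries named in the text. Members called lower at 500 against 200 nM numbered 77 in a fit of both groups alone, 75 and 71 by limma on log2(TPM + 1) and log2(TPM + 0.1), and 101 to 113 with 1 library left out. Members called higher at 500 against 25 nM numbered 28 in a fit of both groups alone, 6 and 17 by limma on log2(TPM + 1) and log2(TPM + 0.1), 5 on log2(TPM + 1) without a filter, 24 to 113 with 1 library left out, and 9 without the 3 libraries. Members called higher at 200 nM against DMSO numbered 110 in a fit of both groups alone, 20 by limma on log2(TPM + 0.1), and 37 to 115 with 1 library left out. Counts without the 3 libraries are not given, since that fit rests on a lone 500 nM library. Shares of all IDs called follow in the same order. They were 22.8% and 19.9% to 22.3% for lower at 500 nM against DMSO. For lower at 500 against 200 nM they were 14.2% in a fit of both groups alone and 12.1% by limma on log2(TPM + 0.1). The share by limma on log2(TPM + 1) was about that on log2(TPM + 0.1). With 1 library left out the shares for this comparison were 11.6% to 15.0%. For higher at 500 against 25 nM they were 9.06%, 3.25%, 3.17%, 1.69% and 6.51% to 8.91%. For higher at 200 nM against DMSO they were 14.7%, 9.14% and 12.3% to 15.2%. The cause of these differences in count was not tested. Without 500 nM replicate 2, the log2 fold changes at 500 nM of XBXL10_1g22207 and XBXL10_1g5816 turned to 0.32 and 0.20, with ranges of -0.65 to 0.32 and -1.02 to 0.20 over single libraries left out. Without the 3 libraries they were -2.33 and -8.77, the latter set by edgeR's prior count at 0 counts. The call at 200 nM of XBXL10_1g22207 was lost by limma on TPM (adjusted p 0.18 to 0.247). That of XBXL10_1g5816, with an adjusted p of 0.045 in edgeR, was lost with DESeq2 (0.198), no filter (0.0635), a replicate block (0.0985) and limma on log2(TPM + 0.1) (0.139). It was also lost without any single DMSO or 200 nM library or without 500 nM replicate 3 (0.0748 to 0.124). The 200 nM and DMSO values chose the members and then both of these IDs, so their calls at 200 nM are a description. The log2 fold changes at 500 nM of the 3 members above DMSO at 500 nM kept direction and side of the threshold under all alternatives run. With a replicate block, 41 members were called higher at 500 against 25 nM (8.74% of all IDs were). Deviations of libraries with 1 number had correlations of -0.0574 to 0.108 in 18 pairs, and no pairing was assumed.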
